A study of Saccharomyces cerevisiae with 8 samples.

Results

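Budding yeast cells that lack PDE2, the high affinity cAMP phosphodiesterase, clear cAMP taken up from the medium poorly, and the comparison described here asks which transcripts then depend on TPK3, a gene for a catalytic subunit of protein kinase A (PKA). It set the 3 arrays of Δpde2 cells against the 2 arrays of Δpde2Δtpk3 cells, which are 5 of the 8 Affymetrix Yeast Genome 2.0 arrays of the series. The other 3 are wild type arrays. All genes with a probe set annotated to 1 gene were compared, 5449 in total.

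Both mutants are haploid and share the BY4741 background (mata his3Δ1 leu2Δ met15Δ ura3Δ) with the wild type. All 3 strains were grown for 24 h in YPD, a glucose medium, with 4 mM cAMP, and were collected at the diauxic shift. KanMx stands in place of PDE2 in Δpde2 cells. The Δpde2Δtpk3 strain was made separately, with HIS3 at the PDE2 locus and KanMx at the TPK3 locus. The marker, the origin of the strain and the loss of TPK3 therefore cannot be told apart, and each genotype is 1 strain. The methods describe cultures in triplicate. The files hold no measure of cell density or of the glucose left in the medium.

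cAMP frees the catalytic subunits of PKA from their inhibitor Bcy1p, and PKA is known in yeast for signalling that glucose is plentiful. It promotes growth and the synthesis of ribosomes, and it holds back the stress factors Msn2p and Msn4p, the laying down of glycogen and trehalose, and genes for the use of carbon sources other than glucose. The catalytic subunits share much of their activity but differ in some targets.

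Levels are on a log2 scale, so that 1 unit is 2 fold. The 3 Δpde2 arrays were close to each other, with 17 genes (0.312%) spanning 1 unit or more, whereas the 2 Δpde2Δtpk3 arrays differed by that much at 144 genes (2.64%). The wild type arrays did so at 1344 genes (24.7%), since wild type array 1 stood apart, with r = 0.868 and 0.878 to the other two. The wild type arrays were therefore kept out of the fit and are given beside the mutants as levels only. The number of arrays limits the precision.

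The targeted genes followed the labels. PDE2 read 5.18, 5.08 and 4.92 on the Δpde2 arrays and 5.17 and 4.89 on the Δpde2Δtpk3 arrays, against 9.13 to 10.73 in wild type. TPK3 read 8.58, 8.84 and 8.57 in Δpde2 cells and 4.97 and 4.37 in Δpde2Δtpk3 cells, a difference of 15.9 fold (adjusted p = 0.000443). TPK3 in Δpde2 cells lay beside the 8.64 to 8.77 of wild type. None of the 7 MATa-specific genes and none of the 4 MATα-specific genes passed the test, and no chromosome shifted as a whole, with medians over the 16 chromosomes between −0.055 and 0.11.

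The genes removed from all strains gave a mixed reading. LEU2 read 7.23, 7.72 and 7.10 on array 1 of wild type, Δpde2 and Δpde2Δtpk3 cells, but 5.48 to 6.57 on the other 5 arrays. MET17, the gene removed in met15Δ strains, read 7.39 on wild type array 1 and 8.27 on Δpde2 array 1, and 5.35 to 5.73 on the others. URA3 read 3.80 to 4.91 throughout. Results below were also computed without each array in turn. HIS3, which the Δpde2Δtpk3 strain carries as a marker, was 1.47 fold higher in Δpde2 cells (adjusted p = 0.0231), at 11.81 to 11.95 against 11.11 and 11.53. That call held with 2 of the 5 arrays left out in turn and was lost with the others (adjusted p up to 0.0838).

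At an adjusted p under 0.05, Δpde2 cells had 1236 genes above and 1074 genes below their level in Δpde2Δtpk3 cells, which is 22.7% and 19.7% of the genes tested. Of these, 143 were at least 2 fold higher (2.62%) and 169 at least 2 fold lower (3.1%). The median difference over all genes was 0.016. Values are relative to the other transcripts of the same array, and RNA came from whole cultures, so that fewer cells with a transcript and less of it per cell cannot be told apart. With all 8 arrays in 1 fit, in which the spread of wild type array 1 enters the error, 303 genes were higher (5.56%) and 404 lower (7.41%). A list of genes is read below against the shares of all genes, and the lists are described by counts and medians without a test. Without 1 Δpde2 array, 626 to 716 genes were higher and 621 to 689 lower, and calls rose without a Δpde2Δtpk3 array. Counts of a list with an array left out move with these totals, so such a change need not be particular to the list.

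**Figure D1:**
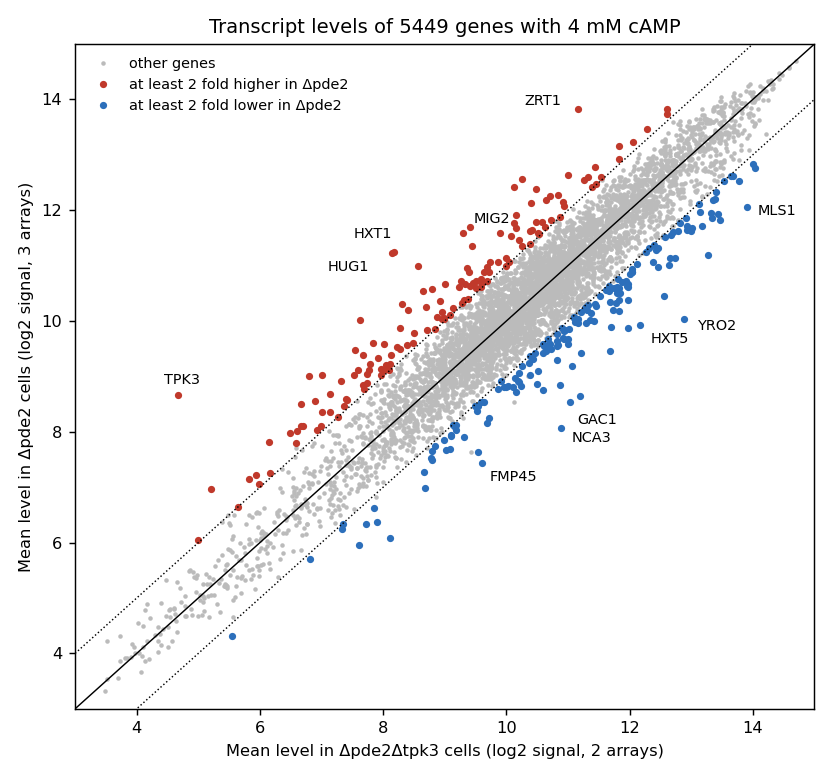
Each point is 1 of 5449 genes, with its mean log2 signal on the 2 Δpde2Δtpk3 arrays on the x axis and on the 3 Δpde2 arrays on the y axis. The solid line marks equal levels and the dotted lines a 2 fold difference. The 143 genes at least 2 fold higher in Δpde2 cells are red and the 169 at least 2 fold lower are blue, and TPK3, absent from the strain on the x axis, lies farthest above the line.

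Genes for glycogen, trehalose, the glyoxylate cycle, gluconeogenesis and respiration were lower in Δpde2 cells, and genes for ribosomal proteins, sulphate assimilation, phosphate acquisition and seripauperins were higher. The plot of counts by list gives the shares called in a selection of the 52 lists.

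**Figure D2:**
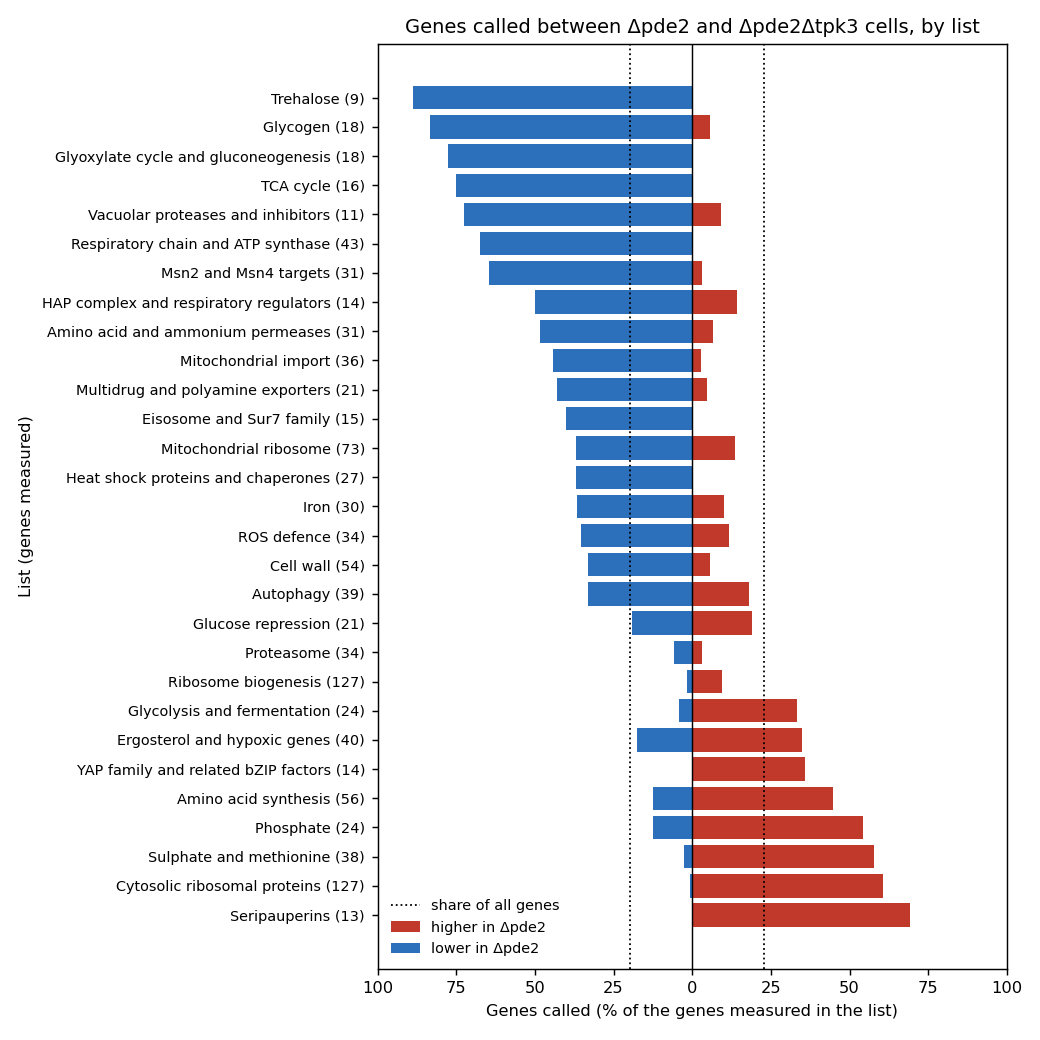
A selection of the 52 lists is drawn. Bars give the percentage of the genes measured in each list drawn (number in brackets) called at an adjusted p under 0.05. Red bars to the right are genes higher in Δpde2 cells and blue bars to the left are genes lower. Dotted lines mark the shares over all genes, 22.7% higher and 19.7% lower. Trehalose genes reach 88.9% lower and seripauperins 69.2% higher.

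Within the cAMP and PKA pathway itself, members on both sides of the pathway differed. Of 17 core genes measured, 4 were higher (23.5%, near the 22.7% of all genes) and 6 lower (35.3%, against 19.7%). The lower genes numbered 3 or 4 as each Δpde2 array was left out. With all 8 arrays in 1 fit, 2 were higher and 3 lower. TPK3 itself is among the 4 higher genes, fixed by the genotype, and PDE2, removed from both strains, is among the 17. IRA1 and IRA2 encode the GTPase activating proteins that switch off Ras. IRA1 read 10.66, 10.55 and 10.41 in Δpde2 cells and 11.48 and 11.24 in Δpde2Δtpk3 cells, 1.77 fold lower (adjusted p = 0.00437). IRA2 was 1.88 fold lower (adjusted p = 0.00592), although with all 8 arrays in 1 fit the adjusted p was 0.177. CDC25, the Ras exchange factor, was 1.58 fold lower (adjusted p = 0.00552).

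CYR1, which encodes adenylate cyclase, read 10.05, 9.66 and 9.52 against 10.72 and 10.39 and was 1.75 fold lower (adjusted p = 0.0165). The receptor gene GPR1 was 1.45 fold lower (adjusted p = 0.0386) and BCY1, the regulatory subunit of PKA, 1.31 fold lower (adjusted p = 0.0291). These 3 calls were lost with some arrays left out, with adjusted p up to 0.0629, 0.116 and 0.0971. Higher in Δpde2 cells were GPA2, the Gα subunit that acts with Gpr1p (1.51 fold), RAS2 (1.43 fold) and PDE1, the low affinity phosphodiesterase (1.47 fold), with adjusted p of 0.00803, 0.00788 and 0.00921. PDE1 and RAS2 did not pass with all 8 arrays in 1 fit (adjusted p = 0.0521 and 0.0588). TPK2, the other catalytic subunit gene in the list, read 12.68, 12.65 and 12.52 against 12.59 and 12.34, a difference of 0.15 with a 95% interval of −0.12 to 0.43.

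Of 18 genes for kinases and factors below PKA, 4 were higher and 5 lower (22.2% and 27.8%, near the shares of all genes). The median was −0.10, and −0.18 without Δpde2Δtpk3 array 1. XBP1, a stress-induced repressor, read 8.14, 8.12 and 8.20 in Δpde2 cells and 9.71 and 9.65 in Δpde2Δtpk3 cells, 2.87 fold lower (adjusted p = 0.00064). In wild type cells XBP1 stood at 11.04 to 11.75, above both mutants. USV1 (2.48 fold) and GIS1 (2.05 fold), factors active as glucose runs out, were also lower (adjusted p = 0.00479 and 0.00155). SOK2, a repressor that PKA acts through, was 1.89 fold higher, at 10.38, 10.11 and 10.31 against 9.53 and 9.17 (adjusted p = 0.00518).

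The transcripts of the stress factors themselves did not pass in the fit reported. MSN2 differed by −0.34 (95% interval −0.63 to −0.05, adjusted p = 0.063) and MSN4 by 0.18 (−0.18 to 0.54, adjusted p = 0.364). Each passed with 1 of the Δpde2Δtpk3 arrays left out, MSN2 at −0.49 without array 1 (adjusted p = 0.00744) and MSN4 at 0.40 without array 2 (adjusted p = 0.0266). MSN2 also passed with the dimmest genes left out (adjusted p = 0.0485). SKO1, another repressor under PKA, differed by −0.01 (−0.29 to 0.28).

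Genes of the glyoxylate cycle and gluconeogenesis, which build sugars from acetate and ethanol, were among the lists with the largest shifts. Of 18 genes 14 were lower and none higher, 10 of them by at least 2 fold, with a median difference of −1.07. Between 11 and 15 were lower as each array was left out. MLS1, malate synthase, read 12.25, 12.03 and 11.87 in Δpde2 cells against 14.08 and 13.72 in Δpde2Δtpk3 cells, 3.61 fold lower (adjusted p = 0.00153). FBP1, fructose-1,6-bisphosphatase, read 12.01, 11.94 and 11.50 against 13.86 and 13.07, 3.14 fold lower (adjusted p = 0.00521). On the 3 wild type arrays MLS1 stood at 14.11 to 14.24 and FBP1 at 13.99 to 14.11.

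SFC1, the mitochondrial carrier that exchanges succinate for fumarate, was 4.19 fold lower, at 11.29, 11.29 and 11.03 against 13.61 and 12.93 (adjusted p = 0.00196). IDP2, the cytosolic isocitrate dehydrogenase, was 2.83 fold lower (adjusted p = 0.0053). Of the 2 Δpde2Δtpk3 arrays, array 1 was the higher one for MLS1, FBP1, SFC1 and IDP2, and the groups did not overlap for any of them. Genes whose arrays did not overlap made up 30.6% of all genes in this direction.

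The regulators of those genes were lower as well. CAT8, the activator of gluconeogenic genes, read 9.86, 9.53 and 9.53 against 10.99 and 10.66, 2.27 fold lower (adjusted p = 0.00335). SIP4 (2.02 fold), ADR1 (1.99 fold) and RDS2 (1.81 fold), which encode activators of the same and related genes, had adjusted p of 0.00366, 0.00353 and 0.00297. HAP4, the activating subunit of the HAP complex that drives respiratory genes, read 12.59, 12.56 and 12.43 against 13.22 and 12.76. It was 1.38 fold lower (adjusted p = 0.0493). That call was lost without any 1 of the Δpde2 arrays and with all 8 arrays in 1 fit (adjusted p = 0.472). It was also lost with values as deposited, median centring and quantile normalization over the 5 mutant arrays (adjusted p = 0.0611, 0.0646 and 0.0514). Without Δpde2Δtpk3 array 1 the log2 difference of HAP4 was −0.23, against −0.41 to −0.49 without 1 Δpde2 array. PUF3, which encodes an RNA-binding protein that represses mRNAs for mitochondrial proteins, was 1.96 fold higher (adjusted p = 0.00299). Of the 14 regulators in the list, 7 were lower and 2 higher, with 4 to 8 lower as each array was left out.

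Respiration followed the same direction. In the TCA cycle 12 of 16 genes were lower (median −0.59) and in the respiratory chain and ATP synthase 29 of 43 (median −0.43), with none higher in either list. Between 20 and 33 of the 43 were lower as each array was left out, and 17 with all 8 arrays in 1 fit. KGD1 of the α-ketoglutarate dehydrogenase was 2.23 fold lower (adjusted p = 0.00196) and COX4 of cytochrome c oxidase 2.27 fold lower (adjusted p = 0.00178).

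Carnitine genes, which carry acetyl units into mitochondria, rested on an uneven pair of arrays. YAT2, a carnitine acetyltransferase, read 10.81, 11.02 and 10.80 in Δpde2 cells but 12.53 and 11.55 on the 2 Δpde2Δtpk3 arrays (2.25 fold, adjusted p = 0.0176). CAT2, the major carnitine acetyltransferase, read 12.95 and 12.09 there against 11.42 to 11.64 (2.00 fold, adjusted p = 0.0192). Both calls were lost with some arrays left out (adjusted p up to 0.0631 and 0.0678). CRC1, the mitochondrial carnitine carrier, kept its call each time and was 2.51 fold lower (adjusted p = 0.00784).

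Of 30 mitochondrial carrier and porin genes 11 were lower (36.7%, against 19.7% of all genes). Another 7 were higher (23.3%, near the 22.7% of all genes), and the median was −0.03. PIC2, a phosphate and copper carrier, read 11.67, 11.74 and 11.71 against 13.18 and 13.19, 2.78 fold lower (adjusted p = 0.00064). OAC1, the oxaloacetate and sulphate carrier, moved the other way, at 12.20, 12.26 and 12.29 against 10.69 and 10.72, 2.92 fold higher (adjusted p = 0.00064). YMC2 (3.78 fold) and AAC3, the ADP/ATP carrier made under low oxygen (3.44 fold), were also higher (adjusted p = 0.000585 and 0.00148).

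Genes that build and place mitochondria had smaller median differences than the respiratory chain. Of 73 mitochondrial ribosomal protein genes 27 were lower and 10 higher (median −0.16), falling to 12 lower and 2 higher without Δpde2 array 1, and 6 were lower and none higher with all 8 arrays in 1 fit. Of 36 import genes 16 were lower (median −0.29), falling to 3 without Δpde2 array 3 and to 4 in the fit of 8 arrays. Over all genes the lower calls fell from 1074 to 621 and 404 in those fits. For the shape and position of mitochondria 8 of 25 genes were lower (32.0%, against 19.7% of all genes) and 3 higher (12.0%, against 22.7%). The median was −0.24, and 3 were lower in the fit of 8 arrays. NUM1, which anchors mitochondria at the cell cortex, was 2.29 fold lower (adjusted p = 0.00277).

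Genes for storage carbohydrates were lower in Δpde2 cells almost throughout. Of 18 glycogen genes 15 were lower and 1 higher (median −0.81), with 12 to 15 lower as each array was left out. GAC1, whose product brings the phosphatase Glc7p to glycogen synthase, read 8.69, 8.31 and 8.62 in Δpde2 cells against 10.84 and 11.24 in Δpde2Δtpk3 cells, 5.65 fold lower (adjusted p = 0.000949). PIG2, another partner of Glc7p, read 10.38, 10.34 and 10.38 against 11.88 and 11.76 (2.74 fold, adjusted p = 0.000788). PIG2 did not pass with all 8 arrays in 1 fit (adjusted p = 0.153), where wild type array 1 read 9.86 and the other two 11.93 and 11.94.

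GLC3, the glycogen branching enzyme, was 2.09 fold lower (adjusted p = 0.00235), and MRK1, a homologue of glycogen synthase kinase 3, 3.44 fold lower (adjusted p = 0.000958). Of 9 trehalose genes 8 were lower and none higher, with a median difference of −1.01. TPS2, the trehalose phosphatase, read 11.59, 11.50 and 11.58 against 12.70 and 12.65, with wild type at 12.42 to 12.75. TPS2 and the synthase subunit TSL1 were 2.17 and 2.07 fold lower (adjusted p = 0.00148 and 0.00182).

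**Figure D3:**
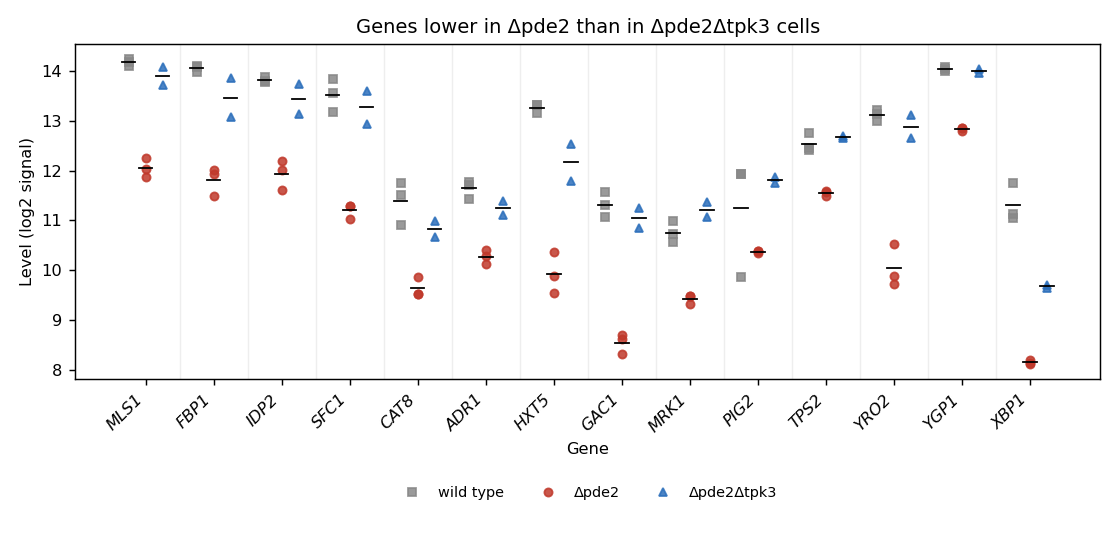
Log2 signal of 14 genes on each array, with wild type in grey squares, Δpde2 in red circles and Δpde2Δtpk3 in blue triangles. Black lines mark the mean of each strain. For all 14 genes, picked for large decreases, the Δpde2 arrays lie below both Δpde2Δtpk3 arrays, as they do for 30.6% of all genes. For some of them, such as XBP1, MLS1 and FBP1, both Δpde2Δtpk3 arrays also lie below all wild type arrays.

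Targets of Msn2p and Msn4p, which answer to stress and to glucose running out, were lower at 20 of 31 genes and higher at 1 (median −0.63). YGP1, a secreted glycoprotein made as glucose is used up, read 12.86, 12.80 and 12.85 against 13.96 and 14.05 and was 2.25 fold lower (adjusted p = 0.00148). SOL4 of the pentose phosphate pathway was 2.52 fold lower (adjusted p = 0.00195). HSP12, a membrane-protecting heat shock protein, was uneven within Δpde2 cells, at 12.51, 13.40 and 12.40 against 13.93 and 14.16. It was 2.42 fold lower (adjusted p = 0.0176), and the adjusted p rose to as much as 0.0635 with 1 array left out. CTT1, the cytosolic catalase, was 1.67 fold lower (adjusted p = 0.0044), and both mutants, at 10.52 to 11.45, lay below the 12.99 to 13.09 of wild type.

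YRO2 and NCA3 had the largest fitted decreases, which differed by less than their errors. YRO2 encodes a membrane protein related to the heat shock protein Hsp30p. YRO2 read 9.88, 10.53 and 9.72 in Δpde2 cells, 12.65 and 13.12 in Δpde2Δtpk3 cells and 12.99 to 13.21 in wild type, a fall of 7.17 fold (adjusted p = 0.00176). Its relative MRH1 was 2.12 fold lower (adjusted p = 0.00592). NCA3, which acts in the expression of mitochondrial ATP synthase subunits and belongs to the SUN family of cell wall proteins, read 7.85, 8.54 and 7.81 against 10.58 and 11.18 and fell by 2.81 on the log2 scale (adjusted p = 0.00187). In wild type NCA3 was higher than in either mutant, at 12.73 to 13.38.

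Some genes of membranes and the cell surface were also among the 20 largest decreases. FMP45, of the Sur7 family of eisosome proteins, read 7.50, 7.54 and 7.26 against 9.74 and 9.48, 4.53 fold lower (adjusted p = 0.000744). RTN2, a reticulon of the endoplasmic reticulum, was 4.28 fold lower (adjusted p = 0.00064). CWP1, a mannoprotein of the cell wall, read 10.50, 10.55 and 10.34 against 12.21 and 12.89 (4.25 fold, adjusted p = 0.00178). Of 54 cell wall genes 18 were lower and 3 higher, and of 15 eisosome genes 6 were lower, with 11 to 28 and 3 to 8 lower as each array was left out. UTR2, an enzyme that links chitin to glucan in the wall, was the wall gene with the largest rise, 2.73 fold higher (adjusted p = 0.00148, and 0.094 with all 8 arrays in 1 fit).

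ROS defence genes fell in part. Of 34 genes 12 were lower and 4 higher (median −0.13), with 7 lower without Δpde2 array 1. MCR1, the mitochondrial NADH-cytochrome b5 reductase, read 11.90, 12.20 and 11.77 against 13.36 and 13.29, 2.58 fold lower (adjusted p = 0.00215). SOD2, the mitochondrial superoxide dismutase, was 1.38 fold lower (adjusted p = 0.00861). SOD1, the cytosolic enzyme, read 13.99, 14.01 and 13.94 against 14.18 and 14.13, a difference of −0.18 (95% interval −0.38 to 0.03, adjusted p = 0.147). With trend and robust moderation of the variances SOD1 passed (adjusted p = 0.022).

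Of 17 genes for hexose transporters and sensors, 4 were higher and 2 lower, near or below the shares of all genes, with a median of 0.02. HXT1, the low affinity transporter made at high glucose, read 11.18, 11.29 and 11.26 in Δpde2 cells and 8.29 and 8.05 in Δpde2Δtpk3 cells, 8.40 fold higher (adjusted p = 0.000198). Wild type cells read 6.83 to 8.31. HXT5, the transporter of slowly growing cells, was 4.73 fold lower, at 9.88, 10.37 and 9.55 against 12.54 and 11.80 (adjusted p = 0.00346). SNF3, the sensor of low glucose, was 2.08 fold lower (adjusted p = 0.00193). HXT2 (2.17 fold) and HXT3 (1.73 fold) were higher (adjusted p = 0.0038 and 0.009), but with all 8 arrays in 1 fit their adjusted p were 0.384 and 0.293. Both mutants, at 12.41 to 13.89 for HXT2, were far above the 7.11 to 9.91 of wild type.

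MIG2 and MIG3, which encode repressors of genes for other carbon sources, were higher in Δpde2 cells. MIG2 read 11.61, 11.47 and 11.68 against 8.61 and 9.96, 4.92 fold (adjusted p = 0.00518), and 4.99 to 5.66 in wild type. MIG3 read 10.63, 10.59 and 10.79 against 9.11 and 8.88, 3.19 fold (adjusted p = 0.000958). REG2 and SIP2, a phosphatase subunit and a Snf1p kinase subunit, were 2.59 and 2.15 fold lower (adjusted p = 0.00337 and 0.00754). Over the 21 genes of glucose repression 4 were higher and 4 lower, which is close to the shares of all genes. The 4 higher fell to 2 without Δpde2 array 2 or 3.

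Few glycolytic genes moved far. Of 24 genes 8 were higher and 1 lower, with a median of 0.06, and the 8 fell to 3 without any 1 of the Δpde2 arrays and to 1 in the fit of 8 arrays. PDC5, a pyruvate decarboxylase, was 2.63 fold higher, at 10.66, 10.66 and 10.55 against 9.41 and 9.04 (adjusted p = 0.00178, and 0.0524 in the fit of 8 arrays). GPP2, a glycerol phosphatase, was 1.85 fold higher (adjusted p = 0.00274). GPD2, of glycerol synthesis, was 2.15 fold higher at an adjusted p of 0.0276, which held with 1 of the 5 arrays left out.

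Cytosolic ribosomal protein genes were higher as a group. Of 127 measured, 77 were higher and 1 lower, with a median difference of 0.38 against 0.016 over all genes. RPS22A read 12.94, 12.99 and 12.86 against 11.89 and 11.74, 2.16 fold higher and the largest rise of the list (adjusted p = 0.00155). Many yeast ribosomal proteins have a near-identical copy, so that a probe set may read both. The count was 30 without Δpde2 array 1, 38 without array 2 and 42 without array 3, and 25 with all 8 arrays in 1 fit. The lower gene, RPS9A, read 10.01 and 11.43 on the Δpde2Δtpk3 arrays and 9.24 to 9.63 in Δpde2 cells, and its call (adjusted p = 0.0461) held with 2 of the 5 arrays left out.

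Ribosome biogenesis genes, for the factors that assemble ribosomes, did not follow. Of 127 genes 12 were higher and 2 lower, below the shares of all genes, and the median was 0.00. Here the 2 Δpde2Δtpk3 arrays stood on either side of the Δpde2 arrays. The median level of the list was 9.66 and 10.49 on Δpde2Δtpk3 arrays 1 and 2, and 10.05, 10.16 and 9.92 on the Δpde2 arrays. Array 2 was above array 1 at 126 of the 127 genes. Without Δpde2Δtpk3 array 2, 52 genes of the list were higher in Δpde2 cells and the median was 0.32, and without array 1, 65 were lower and 11 higher and the median was −0.38.

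Of the 122 genes at least 2 fold higher on Δpde2Δtpk3 array 2 than on array 1, 40 were ribosome biogenesis genes, and of the 22 genes with the opposite difference none was. SRP40, a nucleolar chaperone, stood above both arrays in Δpde2 cells, at 11.87, 11.76 and 11.75 against 10.27 and 10.68 (2.49 fold, adjusted p = 0.00225). Genes of RNA polymerases I and III shared the difference between the 2 arrays, with a median of 0.37. AAH1, adenine deaminase, is among the 20 largest decreases through array 2 alone, which read 12.16 against 9.95 on array 1 and 8.90 to 9.37 in Δpde2 cells (3.66 fold, adjusted p = 0.0448, up to 0.127 with 1 array left out).

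**Figure D4:**
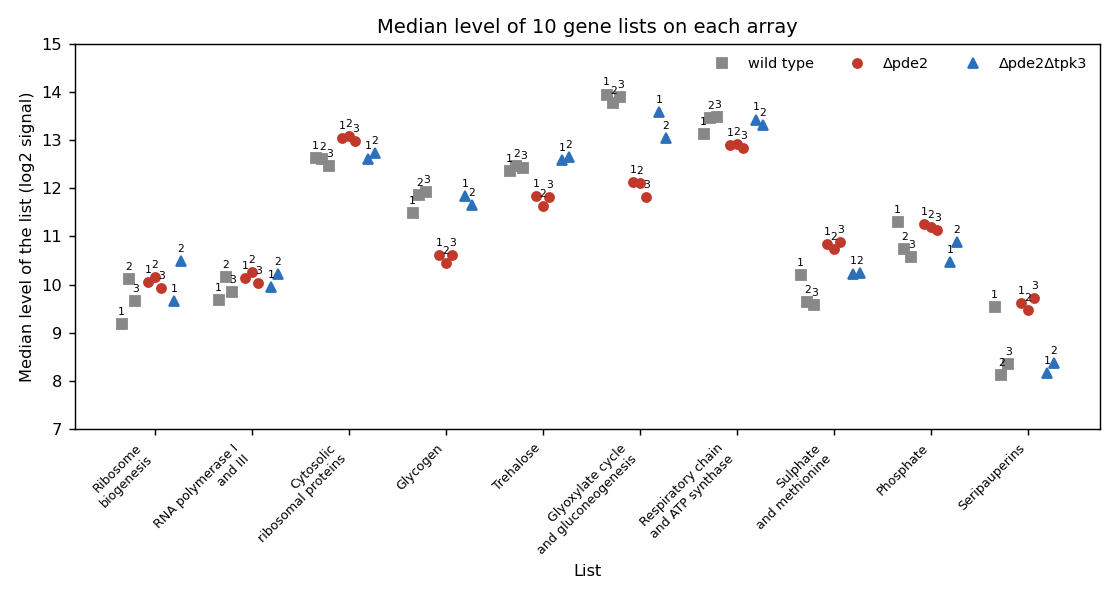
Median log2 signal of the genes of 10 lists on each array, with wild type in grey squares, Δpde2 in red circles and Δpde2Δtpk3 in blue triangles, and the array number above each point. For ribosome biogenesis, Δpde2Δtpk3 array 1 (9.66) lies below and array 2 (10.49) above all Δpde2 arrays, whereas for glycogen, trehalose, ribosomal proteins, sulphate and seripauperins both lie on 1 side of them.

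Some genes of zinc supply were among the largest rises. ZRT1, the high affinity zinc transporter, read 13.77, 13.86 and 13.85 against 11.10 and 11.23, 6.33 fold higher (adjusted p = 0.000198), with wild type at 9.64 to 10.67. ZAP1, the activator of zinc genes, was 3.04 fold higher (adjusted p = 0.000834). ZPS1, a secreted protein of zinc-limited cells, was 2.23 fold higher (adjusted p = 0.00148). In the zinc list as a whole 5 of 17 genes were higher and 3 lower, with a median of 0.09. These are 29.4% and 17.6%, not far from the 22.7% and 19.7% of all genes. IZH1, a membrane protein tied to zinc levels, was lower at 9.83 to 10.11 against 10.77 and 12.07 (2.66 fold, adjusted p = 0.0215), a call kept with 2 of the 5 arrays left out.

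Of 24 phosphate genes 13 were higher and 3 lower (median 0.31), and the 13 became 6 without any 1 of the Δpde2 arrays. PHO5, the main repressible acid phosphatase, read 12.11, 12.18 and 12.11 against 10.38 and 10.42, 3.33 fold higher (adjusted p = 0.000443). PHO5 in wild type spanned 10.92 to 12.26, from above the Δpde2Δtpk3 arrays up to the level of the Δpde2 arrays. SPL2, an inhibitor of low affinity phosphate transport, was 2.27 fold higher (adjusted p = 0.00329). PHO11, an acid phosphatase with the near-identical copy PHO12, was 4.92 fold higher (adjusted p = 0.00153).

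Sulphate assimilation and methionine synthesis gave 22 of 38 genes higher and 1 lower (median 0.45), with 14 to 24 higher as each array was left out and 9 in the fit of 8 arrays. MET14, the APS kinase, read 11.09, 11.01 and 11.10 against 9.73 and 9.73, 2.52 fold higher (adjusted p = 0.000838). MET16, the PAPS reductase of the next step, was 2.73 fold higher, at 10.31, 10.38 and 10.41 against 9.12 and 8.71 (adjusted p = 0.00178). MET32, an activator of these genes, was 2.91 fold higher (adjusted p = 0.00377, and 0.0617 in the fit of 8 arrays). IRC7, a β-lyase that acts on cysteine compounds, was 4.92 fold higher (adjusted p = 0.000419). All strains carry met15Δ, so that the Met17p step, which uses the sulphide made from sulphate, is missing in each.

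Amino acid synthesis genes were higher at 25 of 56 and lower at 7 (median 0.31), and at 8 and 3 in the fit of 8 arrays. Without Δpde2Δtpk3 array 1 the lower genes became 13. LYS9 of lysine synthesis read 12.55, 12.61 and 12.72 against 11.43 and 10.58, 3.08 fold higher (adjusted p = 0.00435). HIS1, the first enzyme of histidine synthesis, was 2.34 fold higher (adjusted p = 0.00154). The Δpde2Δtpk3 strain carries HIS3 and the Δpde2 strain does not, and for histidine genes this difference and that in TPK3 cannot be told apart. AGX1, which makes glycine from glyoxylate, moved down by 3.04 fold (adjusted p = 0.00688).

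**Figure D5:**
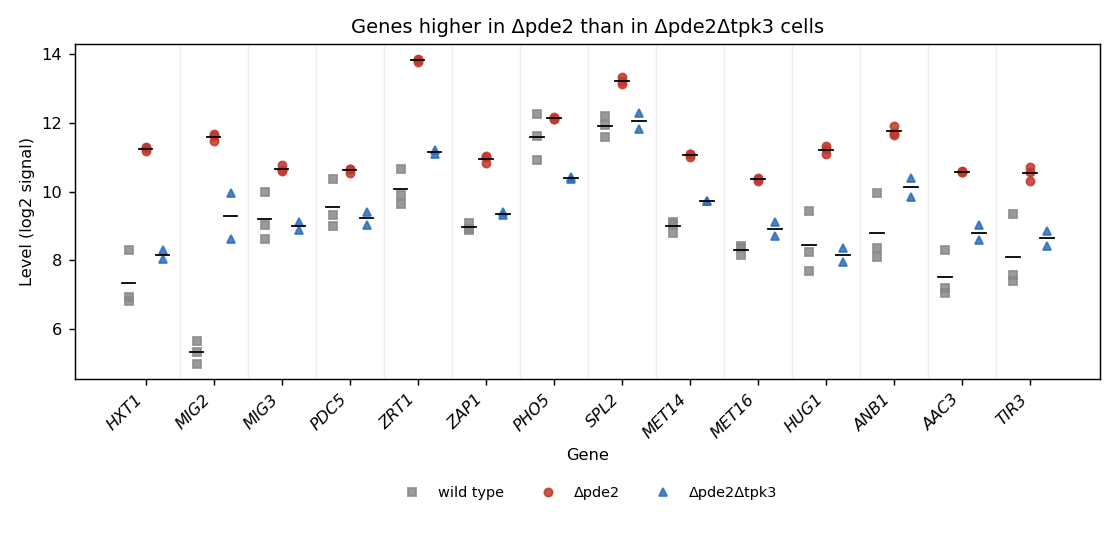
Log2 signal of 14 genes on each array, drawn as in the plot of lower genes, with black lines at the mean of each strain. For all 14 genes, picked for large rises, the 3 Δpde2 arrays lie above both Δpde2Δtpk3 arrays, as they do for 34.0% of all genes, and the grey points show where wild type array 1 lies apart from the other wild type arrays, as for TIR3 at 9.35 against 7.40 and 7.58.

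Genes normally made under low oxygen were higher in part. Of 40 ergosterol and hypoxic genes 14 were higher (35.0%, against 22.7% of all genes) and 7 lower (17.5%, near the 19.7%), with a median of 0.13. In the fit of 8 arrays 3 of the 40 were higher and 2 lower, where 5.56% and 7.41% of all genes were. ANB1, the hypoxic form of a translation factor, read 11.71, 11.90 and 11.66 against 9.85 and 10.40, 3.09 fold higher (adjusted p = 0.00235). TIR3, a cell wall mannoprotein of anaerobic cells, was 3.73 fold higher (adjusted p = 0.00178). ANB1 and TIR3 had adjusted p of 0.0855 and 0.0665 in the fit of 8 arrays, and AAC3 kept its call there (0.0236). DAN4, of the same kind of wall protein, was 2.24 fold lower (adjusted p = 0.00175), and OLE1, the fatty acid desaturase, 1.60 fold lower (adjusted p = 0.00533).

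Seripauperins, small wall proteins also made without oxygen, were higher at 9 of 13 genes and lower at none (median 1.01). PAU24 read 9.27, 9.47 and 9.72 against 7.63 and 7.45 (3.86 fold, adjusted p = 0.00148, and 0.0523 in the fit of 8 arrays). On wild type array 1 it read 9.53, and 7.80 and 7.71 on the other two. The copies are near-identical in sequence and cannot be counted as separate genes, and 1 of the 13 was called in the fit of 8 arrays.

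HUG1, an inhibitor of ribonucleotide reductase that the DNA damage checkpoint induces, was among the genes with the largest rises, beside HXT1. HUG1 read 11.10, 11.34 and 11.25 in Δpde2 cells against 8.36 and 7.94, 8.44 fold higher (adjusted p = 0.000443), with wild type at 7.69 to 9.43. DIF1, which moves ribonucleotide reductase subunits into the nucleus, was 2.15 fold higher (adjusted p = 0.00148, and 0.0547 in the fit of 8 arrays). RAD54, a recombination gene also induced by damage, was 1.71 fold lower (adjusted p = 0.00523, and 0.0656 in the fit of 8 arrays). Over the 19 genes of the DNA damage list 3 were higher (15.8%, below the 22.7% of all genes). Another 6 were lower (31.6%, against 19.7%), and none was lower in the fit of 8 arrays.

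YAP6, a bZIP transcription factor, was 5.20 fold higher, at 10.06, 9.71 and 10.26 against 8.00 and 7.26 (adjusted p = 0.00226). Its relatives YAP5 (1.92 fold), CIN5 (1.62 fold) and CAD1 (1.57 fold) were higher as well (adjusted p = 0.00423, 0.00532 and 0.006), CIN5 with an adjusted p of 0.141 in the fit of 8 arrays. Of the 14 genes in that list 5 were higher and none lower.

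Of 26 genes of nitrogen catabolism 5 were higher and 4 lower, below the shares of all genes. DAL80, a repressor of nitrogen catabolic genes, read 10.32, 10.24 and 10.36 against 8.23 and 8.40, 3.98 fold higher (adjusted p = 0.000443). DAL5, the allantoate permease, was 3.39 fold higher (adjusted p = 0.000834). Most permeases that moved were lower, 15 of 31 against 2 higher (median −0.55). PUT4, the proline permease, read 10.38, 10.43 and 10.35 against 12.57 and 11.40 (3.03 fold lower, adjusted p = 0.00998) and MEP3, an ammonium permease, was 2.23 fold lower (adjusted p = 0.00225). As each array was left out, 9 to 23 permeases were lower.

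Of 30 iron genes 11 were lower and 3 higher (median −0.22). SIT1, a siderophore transporter, read 10.61, 10.73 and 10.52 against 11.81 and 12.12, 2.54 fold lower (adjusted p = 0.00178). FTR1 (2.41 fold) and FET3 (1.98 fold), the permease and the oxidase of high affinity uptake, and CCC2, which delivers copper to Fet3p (2.28 fold), were lower (adjusted p = 0.00438, 0.00461 and 0.00477). Δpde2Δtpk3 array 2 read above array 1 for all 4 of these genes.

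Exporters of drugs and polyamines were lower at 9 of 21 genes, 6 of them by at least 2 fold, and higher at 1, and without Δpde2Δtpk3 array 1 they were lower at 15. PDR15, a multidrug transporter of stressed cells, read 10.41, 10.10 and 10.05 against 11.76 and 11.70, 2.91 fold lower (adjusted p = 0.00152). TPO3, a polyamine exporter, was 2.61 fold lower (adjusted p = 0.0029). SNQ2, at 10.95 and 11.81 in Δpde2Δtpk3 cells, was 2.34 fold lower (adjusted p = 0.0114).

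Genes for breakdown within the cell were mixed. Of 39 autophagy genes 13 were lower and 7 higher (median −0.18), and these counts ranged from 7 to 18 and from 2 to 10 as each array was left out. ATG4, the protease that processes Atg8p, read 7.66, 7.90 and 8.16 against 9.18 and 9.44, 2.64 fold lower (adjusted p = 0.00274), whereas ATG15, the vacuolar lipase, was 2.13 fold higher (adjusted p = 0.00827, and 0.082 in the fit of 8 arrays). Among 11 vacuolar proteases and their inhibitors 8 were lower, falling to 4 without Δpde2 array 1 or array 3 and to 2 in the fit of 8 arrays, and CPS1, a carboxypeptidase, was 2.50 fold higher (adjusted p = 0.00178). Of 34 proteasome genes 2 were lower and 1 higher, fewer than the shares of all genes would give.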

How the data were processed

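Total RNA from 3 Δpde2 and 2 Δpde2Δtpk3 cultures, and from 3 wild type cultures shown as levels, was hybridised to Affymetrix Yeast Genome 2.0 arrays. The values deposited by the authors are on a log2 scale, as read from their range. The methods name dChip for quality control and limma for testing gene by gene. The summarization and normalization behind the values are not given in the sources used here. No depth applies to arrays, and their number limits the precision.

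Values of all 8 arrays were quantile normalized, since first quartiles ran from 9.00 to 9.38. Of 5814 probe sets 5498 had 1 gene, none several and 316 none, and the last were left out. For 47 genes the probe set with the highest mean was used, giving 5449 genes, and 12 symbols were updated. limma 3.58.1 under R 4.3.3 was fitted to the 5 mutant arrays (3 residual and 3.26 prior degrees of freedom), with Benjamini-Hochberg adjustment of p over all genes. P-values measure the spread between these arrays. Intervals are 95% and do not allow for multiple genes. Leaving out 1 Δpde2Δtpk3 array assumes that the lone array varies like the others.

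The comparison and the 52 gene lists, drawn from general knowledge, were chosen with earlier results of these data known. Genes were named if among the 20 largest differences in each direction, among up to 4 called members with the largest difference in each direction in a list, in the PKA core or among a few fixed names, and not all were printed. In 10 simulated sets of this comparison over 5449 genes, 200 genes were changed. Of log2 differences of 1, 80.9% were recovered, and of those of 2, 96.3%, with 4.62% false calls. The simulated noise was independent between genes and arrays, and fewer genes changed than the 42.4% called in the data. These rates therefore do not cover shifts that many genes of 1 array share. The alternatives were other normalizations, other sets of arrays in the fit, a filter on dim genes, mean probe sets, other moderation, a replicate block and each array left out.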

Additional observations from a re-analysis of the deposited data

How the results depend on the processing

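With all 8 arrays in 1 fit, 303 genes were higher and 404 lower, 80 of the higher by at least 2 fold. With the dimmest genes left out 76 were at least 2 fold higher, of fewer genes tested. With each array left out in turn, the counts ranged from 626 to 1531 (higher), 621 to 1425 (lower), 127 to 193 (at least 2 fold higher) and 143 to 245 (at least 2 fold lower). The lowest counts were those without Δpde2 array 3 and the highest those without Δpde2Δtpk3 array 1. Values as deposited, median centring, quantile normalization over the 5 mutant arrays, the fit of 7 arrays without wild type array 1, mean probe sets and trend and robust moderation kept all 4 counts within 1.5 times of those reported, as the use of fold alone without p did for both counts at 2 fold, although the values as deposited gave 1291 higher and 856 lower.

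The labels give the arrays replicate numbers, but nothing says that a number pairs cultures. The deviations of same-numbered arrays correlated at 0.0491 and 0.194 in the 2 pairs. The deviations of the 2 Δpde2Δtpk3 arrays from their mean mirror each other, so these values cannot test pairing. With a replicate block 646 genes were higher and 641 lower, and of the 116 named genes called, 108 were called. Those lost were BCY1, GPR1, HAP4, HIS3, MRP49, RAS2, RPS9A and SOD2, with adjusted p from 0.0502 to 0.15.

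Of those 116 genes 103 were called with each of the 5 arrays left out in turn, and none changed direction under any alternative run. Most genes were named for the size of their difference in these same data, so this stability does not stand for all called genes. Over all genes, leaving out Δpde2 array 3 took the higher calls from 1236 to 626 and the lower from 1074 to 621. In the fit of 8 arrays 91 of the 116 were called. Those lost there and not given as such above were AAH1, BCY1, GPD2, GPR1, HIS3, MRP49 and RPS9A, with adjusted p of 0.0865, 0.141, 0.219, 0.25, 0.104, 0.122 and 0.147. Among genes not called, MSN4 ranged from −0.03 to 0.40 as each array was left out, turning sign without Δpde2Δtpk3 array 1. SKO1 turned to 0.02 with values as deposited and ranged from −0.09 to 0.07 as each array was left out, turning sign without Δpde2 array 1, Δpde2 array 2 or Δpde2Δtpk3 array 1. The causes of these changes were not tested. Probe sets near background, as for PDE2, TPK3 in the double mutant and LEU2, give only an upper limit of the transcript.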

Other observations

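Several genes with large differences have no role in the lists that carry the account above. BSC1 read 11.02, 10.88 and 11.09 in Δpde2 cells, 9.14 and 8.00 in Δpde2Δtpk3 cells and 4.83 to 6.51 in wild type, 5.39 fold higher (adjusted p = 0.00318). IMA1, an isomaltase, was 4.05 fold higher, at 8.87, 8.90 and 9.32 against 7.22 and 6.80 (adjusted p = 0.00176). YER053C-A, a small open reading frame, was 4.67 fold lower, at 9.52, 9.36 and 9.50 against 11.64 and 11.73 (adjusted p = 0.000419), and it lies next to PIC2. CSM4, known from telomere movement in meiosis, was 4.07 fold lower, at 6.15, 6.41 and 5.72 against 8.36 and 7.87 (adjusted p = 0.00265).

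Of 5017 pairs of neighbouring genes that were both measured, 25 had both members called at 2 fold or more, 10 with both higher, 8 with both lower and 7 in opposite directions. HXT1 and HXT5, ZRT1 and FZF1, and MIG2 and SIP2 are neighbours of opposite direction. A run of genes near the right end of chromosome III was higher, with GIT1 (1.49 on the log2 scale) next to YCR099C (1.42), and YCR101C (1.72), YCR102C (1.29), PAU3 (1.44) and ADH7 (1.21) in order. These pairs and runs were picked after their values were seen. Of the genes next to TPK3, PIR1, for a cell wall protein, was 1.76 fold lower (adjusted p = 0.00316, and 0.129 in the fit of 8 arrays) and MRP49 1.25 fold higher (adjusted p = 0.0272, up to 0.106 with 1 array left out), and none of the 4 genes next to PDE2 passed the test.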
